A study of Mus musculus with 16 samples.

Results

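The mRNAs of the aminoacyl-tRNA synthetases were followed in polysomal and subpolysomal RNA of mouse hepatocytes. The 37 members were taken by their gene name from 30214 gene names on the arrays. They were 20 cytosolic synthetases, 16 mitochondrial synthetases, whose names end in 2, and Tarsl2. Tarsl2, a threonyl-tRNA synthetase-like gene, is kept apart because its name ends in 2 while its product is known as a cytosolic enzyme. All 37 members passed the detection filter among 19365 genes tested, and 35 of them were well above background on all 16 arrays. Eprs and Nars2 were not.

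The cells were AML12, a non-tumourigenic line of mouse hepatocytes. All of them carried a doxycycline-inducible shRNA brought in by a lentivirus and selected with puromycin, and all were given doxycycline for 48 h and insulin for 1 h (100 nM in the methods and in one label, 100 mM in another label). The shRNA was either a scramble sequence, the control, or directed against eIF6, an initiation factor that binds the large ribosomal subunit. Gradient fractions 1 to 6 were pooled as subpolysomal RNA and fractions 7 to 10 as polysomal RNA, which gave 4 groups of 4 one-colour arrays. The methods call the 4 arrays of a group biological replicates. The labels name no separate transductions, so that the shRNA and the transduced population cannot be told apart, and cells without insulin were not analysed here.

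Each synthetase joins an amino acid to the transfer RNAs that carry it, which is the step at which the genetic code is read into amino acids. Cytosol and mitochondria mostly use different enzymes from different nuclear genes, and all of the mitochondrial enzymes are made in the cytosol and imported. Gars and Kars are exceptions in which a single gene serves both compartments, and mitochondria have no glutaminyl-tRNA synthetase but make their glutaminyl-tRNA through an amidotransferase. Some cytosolic synthetases sit together in a complex held by the scaffold proteins Aimp1, Aimp2 and Eef1e1. Phenylalanyl-tRNA synthetase of the cytosol is built of subunits from the genes Farsa and Farsb, whereas the mitochondrial Fars2 works alone.

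Many genes of cytosolic synthetases are known targets of ATF4, the transcription factor of the amino acid response, which binds elements with the core TGATGNAA. This core was looked for on both strands, from 250 bases before to 50 bases after the start of each gene, in RefSeq promoters of GRCm38.p6. A promoter was at hand for 27 of the 37 members, and 5 held the core. Counted by gene in the same way, 4.51% of 27025 gene symbols held it, and counted by promoter 3.97% of 32851. These were 5 of the 12 cytosolic members with a promoter and 0 of the 14 mitochondrial ones. A match in each of the 5 is shown, with 30 bases on the strand of the gene, because the core is a sequence feature that the choice of members did not use. Capitals mark the core, which reads TTNCATCA where it lies on the opposite strand. No binding was measured here, and a match is only a description of the letters.
Aars, chr8:111033840-111033869, plus strand: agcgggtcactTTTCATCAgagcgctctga
Gars, chr6:55037960-55037989, plus strand: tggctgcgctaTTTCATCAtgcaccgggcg
Iars, chr13:49682126-49682155, plus strand: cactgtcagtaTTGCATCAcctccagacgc
Tars, chr15:11399655-11399684, minus strand: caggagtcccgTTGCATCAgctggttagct
Yars, chr4:129189895-129189924, plus strand: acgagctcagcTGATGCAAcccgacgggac

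Values are log2 intensities, quantile normalized over the 16 arrays, and a gene's value is the mean of its kept probes. A change compares eIF6 shRNA with scramble cells in the same fraction, a ratio compares polysomal with subpolysomal RNA of the same cells, and the change in translational efficiency is the difference between the ratios of both cells. Because both fractions were brought to the same distribution, a ratio places an mRNA among the other mRNAs and is not its share on polysomes. Each comparison was tested in limma over all genes with Benjamini-Hochberg adjustment, with calls made below an adjusted p of 0.05.

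The targeted mRNA, Eif6, had a polysomal log2 signal of 12.95 ± 0.01 (SD, n = 4) in scramble cells and 11.89 ± 0.08 in eIF6 shRNA cells. Its subpolysomal signal was 11.60 ± 0.06 and 11.61 ± 0.14. Each array had between 20177 and 24953 probes well above background, and each of the 4 slides held 1 array of every group. Of 12 hepatocyte markers, 9 were above background in all groups, but Alb, Apoa1 and Fgb were not above it on all arrays. Of 8 mesenchymal markers, 7 were called lower on the polysomes of eIF6 shRNA cells, beside 21.8% of all genes called in either direction. Their median change was -2.85, and their part in the values below was not tested.

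Some arrays stood apart for the cytosolic synthetases. The mean deviation of these genes from their own means was -0.21, -0.27, -0.33 and 0.44 on scramble polysomal arrays 1 to 4, and -0.36, -0.30, 0.11 and 0.39 on those of eIF6 shRNA cells. The arrays numbered 4 were the highest in both groups. Of the 20 cytosolic members, 16 (80%) had their highest polysomal value on array 4 in both cells, as had 7 of the 16 mitochondrial members (43.8%) and 19.7% of all genes. Aars, for example, had 12.66, 12.55, 12.57 and 13.59 on the scramble polysomal arrays and 12.44, 12.55, 12.77 and 13.54 on those of eIF6 shRNA cells. Each group held a single value far above its others. The median SD of the cytosolic members over the polysomal arrays was 0.41 in scramble and 0.33 in eIF6 shRNA cells, against 0.21 in both for all genes, whereas in subpolysomes it was 0.11 and 0.09 against 0.18 and 0.16. Over all genes the scramble polysomal array 4 also lay farthest from its fellow arrays, with an SD of 0.48 in a range from 0.34 to 0.48. This was noticed after the values were seen, so that the results that rest on these arrays are given with and without them.

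**Figure D1:**
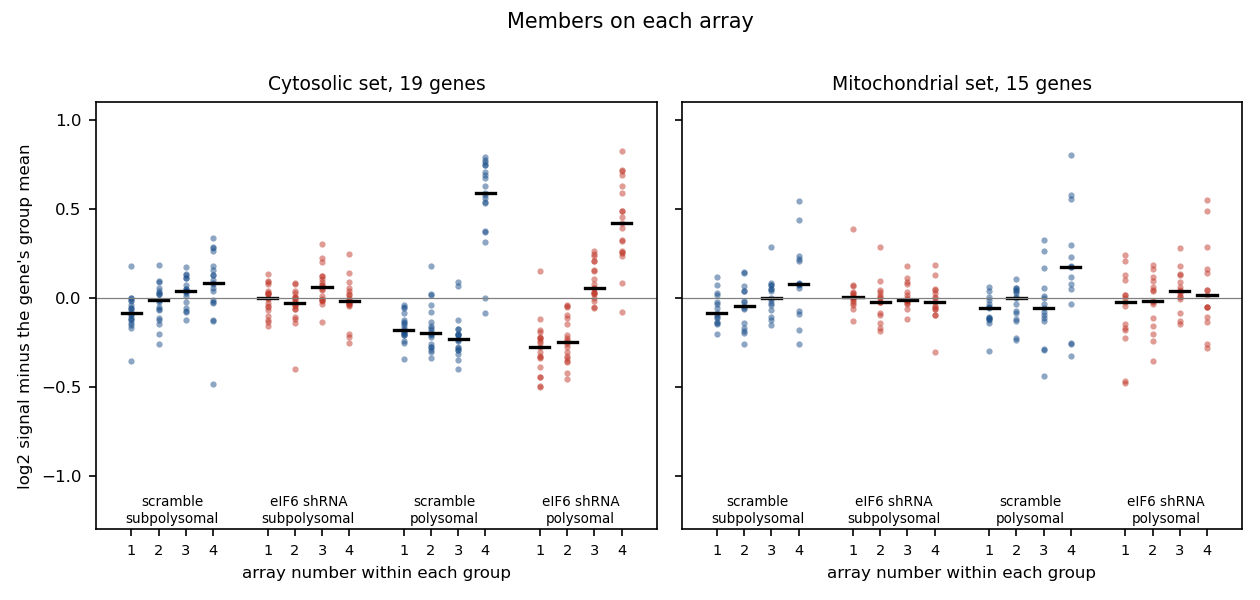
Each cytosolic (19 genes) and mitochondrial (15 genes) synthetase on each array, without the dim genes Eprs and Nars2. Values are log2 signals minus the gene's mean over the 4 arrays of its group. Dots are genes and black bars are their medians, and levels cannot be compared between groups. The cytosolic genes lie highest on the polysomal arrays numbered 4 and close together on the subpolysomal arrays.

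The ratio of polysomal to subpolysomal signal separated the synthetases far more than the shRNA did. In scramble cells 18 of the 37 members were called, 10 lower and 8 higher on polysomes, and in eIF6 shRNA cells 15, of which 7 were lower and 8 higher. Among all genes 60.1% were called in scramble cells (28.4% lower and 31.7% higher) and 60.8% in eIF6 shRNA cells (28.7% lower and 32.1% higher). All 15 members called in eIF6 shRNA cells were called in the same direction in scramble cells, which share no array with them. Across the 37 members, which are not independent replicates, the ratios of both cells were correlated (Pearson's r = 0.976, Spearman's rho = 0.965), and 34 members had the same sign.

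These ratios depend on how the arrays are brought to a common scale. Under quantile normalization the median ratio of all genes was 0.04 in scramble and 0.03 in eIF6 shRNA cells. Scaling to 7 spike-in probes moved it to 1.46 and 1.24, and no member was then called lower: every ratio called lower turned positive, except that of Farsa in eIF6 shRNA cells at -0.048. Scaling to the 75th percentile of each array moved it to -0.34 and -0.37 and called 14 and 15 members, 10 and 11 of them lower. With that scaling 8478 genes were called lower and 4111 higher in scramble cells, against 5498 and 6133 under quantile normalization, and in eIF6 shRNA cells 8913 and 3987 against 5553 and 6224. Each ratio below is therefore relative to the other mRNAs.

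**Figure D2:**
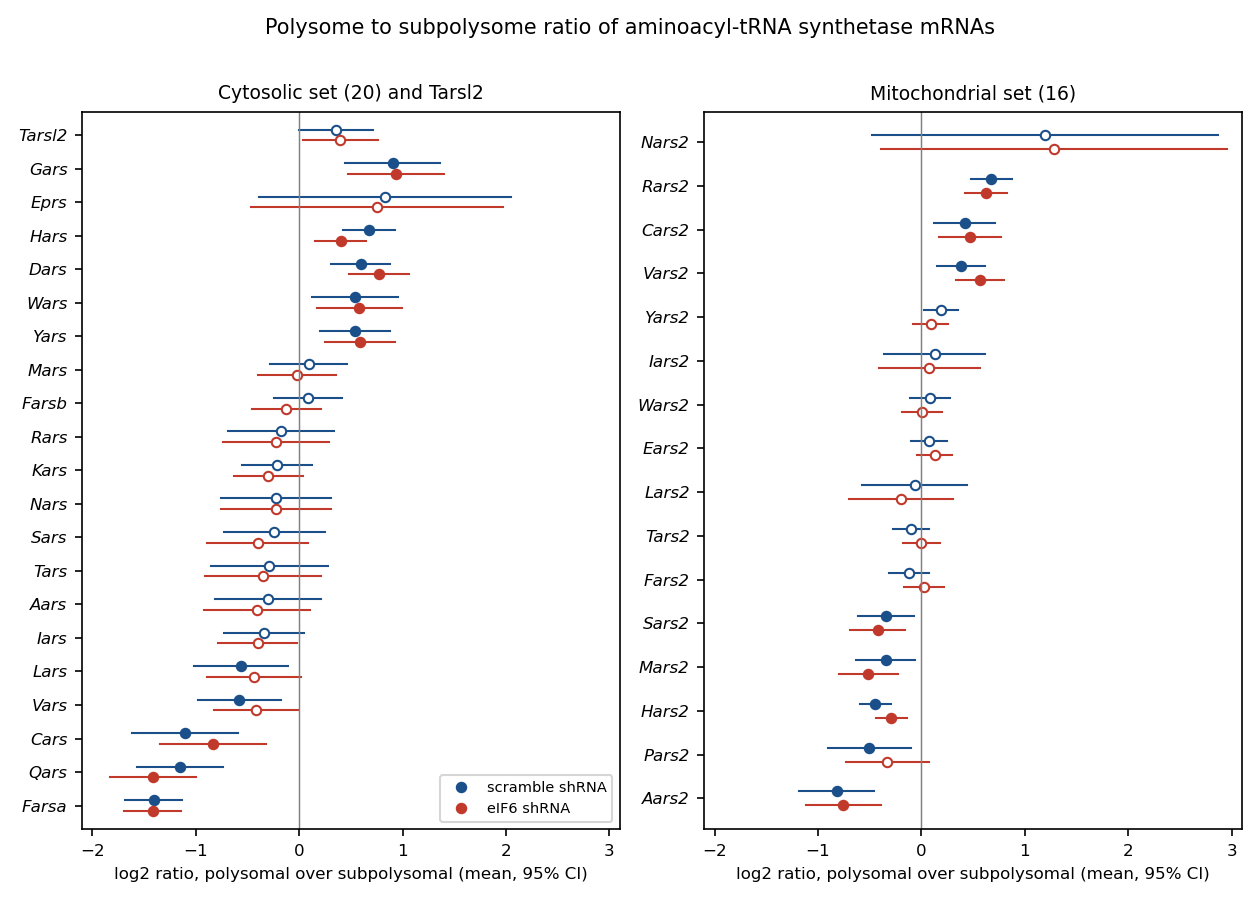
Polysome to subpolysome ratio (log2) of each synthetase in scramble and eIF6 shRNA cells, with 95% intervals; filled markers have an adjusted p under 0.05 (limma). The genes keep nearly the same order in both cells, from Farsa, Qars and Cars at the low end to Gars and the dim Nars2 at the high end, under quantile normalization; spike-in scaling turns the ratios called lower positive except for Farsa in eIF6 shRNA cells, and 75th percentile scaling takes Gars to 0.17 and 0.012.

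Among the cytosolic synthetases, 5 were called lower and 5 higher in scramble cells, with a median ratio of -0.22, and 3 lower and 5 higher in eIF6 shRNA cells, with a median of -0.26. With 75th percentile scaling these medians were -0.21 and -0.33, above and not below those of all genes. The lowest mean over the probes was that of Farsa, the catalytic subunit of phenylalanyl-tRNA synthetase. On scramble polysomal arrays 1 to 4 it read 8.58, 8.47, 8.45 and 8.99, and on the subpolysomal arrays 9.94, 9.91, 10.07 and 10.21. With the eIF6 shRNA it read 8.21, 8.35, 8.56 and 8.49 on polysomal and 9.90, 9.90, 9.88 and 9.61 on subpolysomal arrays. Every polysomal value lay below every subpolysomal value. The ratio was -1.41 (standard error 0.13, adjusted p = 2.63e-07 from limma) in scramble and -1.42 (standard error 0.13, adjusted p = 2.84e-07) in eIF6 shRNA cells, or 2.66-fold and 2.67-fold lower on polysomes, and under spike-in scaling it came to 0.22 and -0.048.

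Farsb, whose product pairs with that of Farsa in the same enzyme, was not called over all arrays. It read 11.35, 11.34, 11.37 and 12.11 on scramble polysomal arrays and 11.33, 11.44, 11.46 and 11.58 on subpolysomal arrays. The eIF6 shRNA values were 11.10, 11.21, 11.41 and 11.59 on polysomal and 11.48, 11.41, 11.50 and 11.42 on subpolysomal arrays. The groups overlapped in both cells, and the ratios were 0.09 (adjusted p = 0.653 from limma) and -0.12 (adjusted p = 0.511). The probes that read these mRNAs across exon junctions are shown with that of Qars, all 60 bases long and placed in mm9, because their genomic span is longer than the probe itself.
Farsa, chr8:87391534-87391694, plus strand: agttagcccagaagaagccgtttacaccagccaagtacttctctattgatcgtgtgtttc
Farsb, chr1:78440318-78451340, minus strand: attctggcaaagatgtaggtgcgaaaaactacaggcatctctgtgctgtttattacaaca
Qars, chr9:108417534-108418156, plus strand: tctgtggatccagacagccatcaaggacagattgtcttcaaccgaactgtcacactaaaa
The probes of Farsa differed in size but not in direction. The junction probe shown gave a ratio of -0.49 in scramble and -0.48 in eIF6 shRNA cells, and a probe at chr8:87393097-87393156 gave -0.89 and -0.75. A probe at chr8:87390408-87390467 gave -2.84 and -3.02. This probe was dim on polysomes, where it lay between 3.47 and 4.71, and without it Farsa would rank above Qars and Cars. Set against Farsb on the same arrays, the junction probe alone still differed from it by -0.58 and -0.36, with no overlap between the fractions.

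Qars, the glutaminyl-tRNA synthetase, was next. It read 12.50, 12.40, 12.47 and 13.45 on scramble polysomal and 13.78, 13.84, 13.91 and 13.92 on scramble subpolysomal arrays. The eIF6 shRNA cells gave 12.97, 12.97, 13.36 and 13.54 on polysomal and 14.63, 14.62, 14.63 and 14.61 on subpolysomal arrays. The fractions did not overlap in either cell. The ratio was -1.16 (standard error 0.19, adjusted p = 0.000121 from limma) in scramble and -1.41 (standard error 0.19, adjusted p = 1.84e-05) in eIF6 shRNA cells, and it turned to 0.72 and 0.15 under spike-in scaling.

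Cars, the cysteinyl-tRNA synthetase, was also lower on polysomes. Its scramble polysomal values were 13.78, 13.98, 13.89 and 14.83, against 15.22, 15.11, 15.36 and 15.19 in subpolysomes. With the eIF6 shRNA they were 13.83, 13.86, 14.52 and 14.91 against 15.06, 15.15, 15.10 and 15.14. The fractions did not overlap, although array 4 came close. The ratio was -1.10 (standard error 0.24, adjusted p = 0.00104 from limma) and -0.84 (standard error 0.24, adjusted p = 0.00739), and 0.62 and 0.55 under spike-in scaling. Vars (-0.58) and Lars (-0.56), the valyl- and leucyl-tRNA synthetases, were called lower in scramble cells, and in eIF6 shRNA cells their ratios of -0.42 and -0.44 missed the threshold (adjusted p = 0.0677 and 0.0863). There Vars was called with the replicate number as a block (adjusted p = 0.0156) and Lars with the slide as a block (adjusted p = 0.0467), while their calls in scramble cells were lost without replicate 1, 2 or 3. The call of Cars in eIF6 shRNA cells was lost without replicate 1 or 2. Under spike-in scaling the ratios of Vars and Lars in scramble cells were 1.26 and 1.31.

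The highest of the cytosolic members that were called was Gars, the glycyl-tRNA synthetase, which serves cytosol and mitochondria. It read 16.52, 16.63, 16.32 and 17.39 on scramble polysomal and 15.72, 15.91, 15.93 and 15.69 on scramble subpolysomal arrays. Its values with the eIF6 shRNA were 16.29, 16.26, 16.83 and 17.11 on polysomal and 15.66, 15.63, 15.78 and 15.69 on subpolysomal arrays. Every polysomal value lay above every subpolysomal value. The ratio was 0.90 (standard error 0.22, adjusted p = 0.00215 from limma) and 0.93 (standard error 0.22, adjusted p = 0.00166). It fell to 0.17 and 0.012, and the call was lost, when arrays were scaled to their 75th percentile, as was that of Yars at 0.017 and -0.044. Hars (0.68 and 0.40), Dars (0.59 and 0.77), Wars (0.54 and 0.58) and Yars (0.54 and 0.59), which charge histidine, aspartate, tryptophan and tyrosine, were higher in scramble and in eIF6 shRNA cells. The probes of Wars gave 0.20 and 0.88 in scramble cells, and with the brighter probe alone Wars was not called. The call of Wars was also lost without replicate 1, 2 or 3 in scramble cells and without replicate 3 in eIF6 shRNA cells, and that of Hars without replicate 1 in eIF6 shRNA cells.

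The arrays numbered 4 weighed on these counts. Without them, 16 of the 20 cytosolic synthetases were called in scramble cells, 12 lower and 4 higher, with a median ratio of -0.43. In eIF6 shRNA cells 18 were called, 13 lower and 5 higher, with a median of -0.46, while among all genes 61.3% and 62.8% were called (29.3% and 29.7% lower) and the median was 0.02 in both. In scramble cells Aars (-0.52), Iars (-0.53), Kars (-0.39), Nars (-0.46), Rars (-0.32), Sars (-0.51) and Tars (-0.59) were then called lower, and Yars was no longer called at 0.43. As these arrays were left out for their high cytosolic values, lower ratios were favoured in advance, and the added calls are no support for them. Over all arrays, spike-in scaling called the same members, Aars to Tars, higher in scramble cells, from 1.31 for Rars to 1.61 for Kars. The mitochondrial set was called for 8 members (4 lower and 4 higher, median -0.03) in scramble cells and for 9 (5 lower and 4 higher, median -0.01) in eIF6 shRNA cells.

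Under quantile normalization, the median ratio of the mitochondrial synthetases was close to that of all genes. In scramble cells 5 of 16 were called lower and 3 higher, with a median of 0.00, and in eIF6 shRNA cells 4 and 3, with a median of 0.01. With 75th percentile scaling the medians were -0.12 and -0.065, above those of all genes. Aars2, the mitochondrial alanyl-tRNA synthetase, was the lowest of those called in scramble cells, with 9.17, 8.99, 8.93 and 9.80 on polysomal and 10.11, 10.02, 9.92 and 10.12 on subpolysomal arrays. The eIF6 shRNA cells gave 9.30, 9.28, 9.70 and 9.81 against 10.30, 10.29, 10.25 and 10.28. The fractions did not overlap. Its ratio was -0.82 (standard error 0.17, adjusted p = 0.000702 from limma) and -0.76 (adjusted p = 0.0013), and 0.90 and 0.77 under spike-in scaling.

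Rars2, the mitochondrial arginyl-tRNA synthetase, was the highest of those called. It read 10.11, 10.04, 10.04 and 10.29 on scramble polysomal and 9.30, 9.58, 9.52 and 9.37 on scramble subpolysomal arrays. With the eIF6 shRNA the values were 10.23, 10.02, 10.27 and 10.36 against 9.59, 9.51, 9.68 and 9.60. No polysomal value fell among the subpolysomal ones, and array 4 lay near the others. The ratio was 0.68 (standard error 0.09, adjusted p = 1.92e-05 from limma) and 0.62 (adjusted p = 4.32e-05). Cars2 (0.42 and 0.47) and Vars2 (0.38 and 0.56) were also higher, though no longer called with 75th percentile scaling (0.19 and 0.23 for Cars2, 0.040 and 0.20 for Vars2), while Mars2 (-0.35 and -0.51), Sars2 (-0.34 and -0.42) and Hars2 (-0.45 and -0.29) were lower. Pars2 was called lower in scramble cells (-0.50), and in eIF6 shRNA cells its ratio was -0.33. In scramble cells spike-in scaling turned Mars2, Sars2, Hars2 and Pars2 to 1.18, 1.35, 1.30 and 0.85. With a replicate left out, the scramble calls of Cars2 and Sars2 were lost without 1, 2 or 3, that of Vars2 without 1, that of Mars2 without 3 or 4 and that of Pars2 without 1 or 4, and in eIF6 shRNA cells those of Cars2 without 1 or 2 and of Sars2 without 1 or 3.

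Nars2, the mitochondrial asparaginyl-tRNA synthetase, was dim. All 4 polysomal arrays of both cells put it well above background, whereas 0 of 4 subpolysomal arrays did in scramble cells and 1 of 4 in eIF6 shRNA cells. Nars2 passed the detection filter only through its polysomal arrays, which favoured a higher polysomal level. In scramble cells its polysomal mean was 1.51-fold above a subpolysomal level set to the lowest signal that counted as well above background. This figure carries no error and is not a minimum. The measured values, 4.27, 4.12, 3.15 and 4.52 on polysomal against 3.32, 3.04, 3.28 and 1.63 on subpolysomal arrays, overlapped through array 3, and the ratio was not called (adjusted p = 0.203 from limma). Eprs, which charges both glutamate and proline, reached that level on 2 of 4 polysomal arrays in each of the cells and on 0 subpolysomal arrays, and no fold is given for it. Tarsl2 read 9.96, 9.88, 9.66 and 10.51 on scramble polysomal and 9.58, 9.84, 9.79 and 9.37 on scramble subpolysomal arrays, which overlapped. The eIF6 shRNA values were 9.92, 10.16, 10.29 and 10.53 against 9.87, 9.75, 9.91 and 9.79, and the ratios of 0.36 and 0.40 missed the threshold in both cells (adjusted p = 0.0832 and 0.0541 from limma). With the slide as a block, both were called (adjusted p = 0.032 and 0.0187).

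Cytosolic and mitochondrial genes for the same amino acid were also compared with each other. For 18 pairs the difference between their ratios was tested by a two-sided exact permutation test that exchanged polysomal and subpolysomal arrays within each of the cells, over 4900 relabellings with 0.000408 as the smallest p. This test was added after the values were seen, and p-values were adjusted over the 18 pairs. The mean difference over both cells had an adjusted p under 0.05 in this test for 14 pairs, with the first gene lower in 9 and higher in 5. Without the arrays numbered 4 all 14 had the same sign in both cells. Taken by same-numbered arrays, the differences of Mars and Mars2, of Yars and Yars2 and of Nars and Nars2 lay on both sides of 0. Nars and Nars2 are among these 14, although Nars2 passed the detection filter only through its polysomal arrays. No pairs of other genes were tested, so that this count cannot be called particular to the synthetases. Singly, 60.1% of all genes had a called ratio in scramble and 60.8% in eIF6 shRNA cells. Scaling by 1 factor per array, which leaves out the quantile step and moves both genes alike, kept the sign of 13 of the 14 but moved several sizes. The differences came to -0.15 and -0.24 for Iars and Iars2, -0.33 and -0.13 for Lars and Lars2, -0.57 and -0.60 for Vars and Vars2, -0.66 and -0.72 for Nars and Nars2 and 0.71 and 0.82 for Wars and Wars2. The values below are those under quantile normalization.

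Cars and Cars2 differed by -1.52 in scramble and by -1.31 in eIF6 shRNA cells (adjusted p = 0.000816, exact permutation test). Farsa differed from Fars2 by -1.29 and -1.44, and from Farsb by -1.50 and -1.29. These sizes rest in part on the Farsa probe that was dim on polysomes. Against Farsb, the junction probe alone differed by -0.58 and -0.36, and the other brighter probe by -0.97 and -0.62. For Vars and Vars2 the difference was -0.96 and -0.99, and for Rars and Rars2 -0.86 and -0.85. Smaller differences of the same sign were those of Iars and Iars2 (-0.47 and -0.48), of Lars and Lars2 (-0.49 and -0.25) and of Tars and Tarsl2 (-0.64 and -0.75). The pair of Nars and Nars2 also passed, at -1.42 and -1.51 with an adjusted p of 0.0262 (exact permutation test), but rests on the dim signal of Nars2. Since Nars2 was kept only through its polysomal arrays, the filter favoured this sign, and no difference is drawn from the pair.
The opposite order was found for Hars and Hars2 (1.12 and 0.69), Aars and Aars2 (0.52 and 0.35), Wars and Wars2 (0.46 and 0.58) and Mars and Mars2 (0.44 and 0.50). Yars lay above Yars2 (0.35 and 0.50) under quantile normalization and below it (-0.18 and -0.11) when each array was scaled by 1 factor. The test did not separate Eprs from Ears2, Tars from Tars2, Sars from Sars2 or Farsb from Fars2 (adjusted p = 0.135, 0.201, 0.76 and 0.891, exact permutation test). Without the arrays numbered 4, Tars differed from Tars2 by -0.53 and -0.56.

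**Figure D3:**
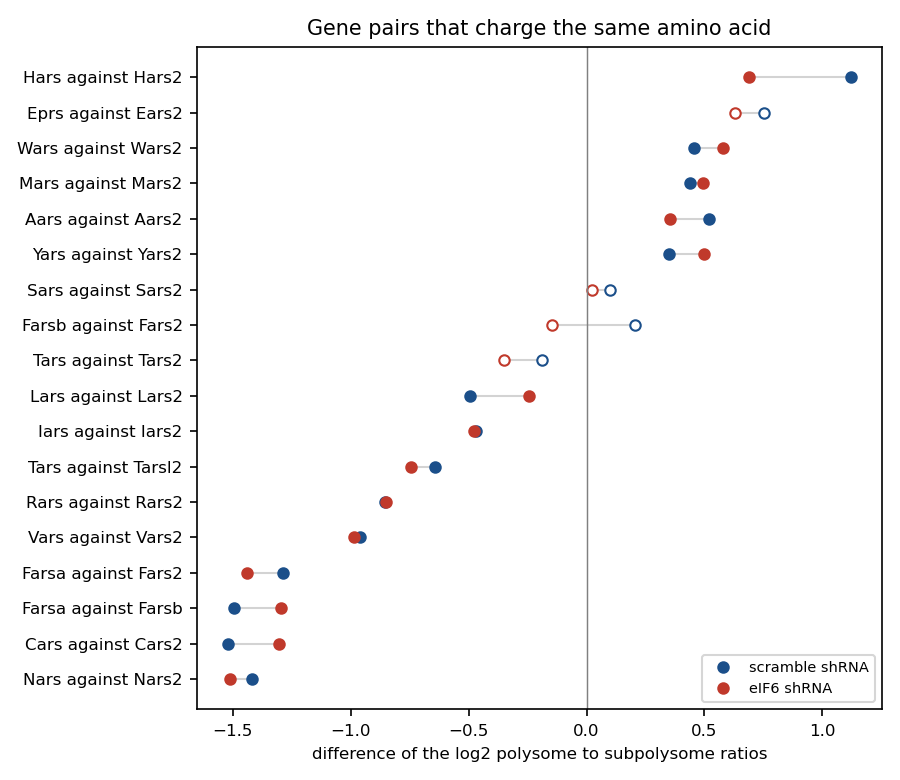
Difference between the log2 polysome to subpolysome ratios of the genes of each pair in scramble and eIF6 shRNA cells, over all arrays; filled markers are pairs with an adjusted p under 0.05 by the exact permutation test over both cells. Cars, Farsa, Vars and Rars lie below their partners and Hars, Wars, Mars, Aars and Yars above, with the same sign in both cells; scaling each array by 1 factor turns the difference of Yars and Yars2 to -0.18 and -0.11. The size of the differences of Farsa rests in part on a probe that was dim on polysomes.

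With all arrays, few synthetase mRNAs were called for a change with the shRNA against eIF6. On polysomes 2 of the 37 members were called, against 21.8% of all genes, and in subpolysomes also 2, against 24.2% of all genes. Without the arrays numbered 4 the counts were 4 on polysomes (25.8% of all genes) and 7 in subpolysomes (31.8%). Aars2 (0.40) and Qars were then called on polysomes as well, and Hars (0.48), Rars (0.42), Pars2 (0.45), Sars2 (0.29) and Lars (-0.55) in subpolysomes. Spike-in scaling called 0 members in either fraction and moved the median change of all genes to -0.47 on polysomes and -0.23 in subpolysomes. The median polysomal change was 0.01 for the cytosolic and 0.13 for the mitochondrial set, beside 0.02 for all genes, and the median subpolysomal change was 0.06, 0.12 and 0.02.

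**Figure D4:**
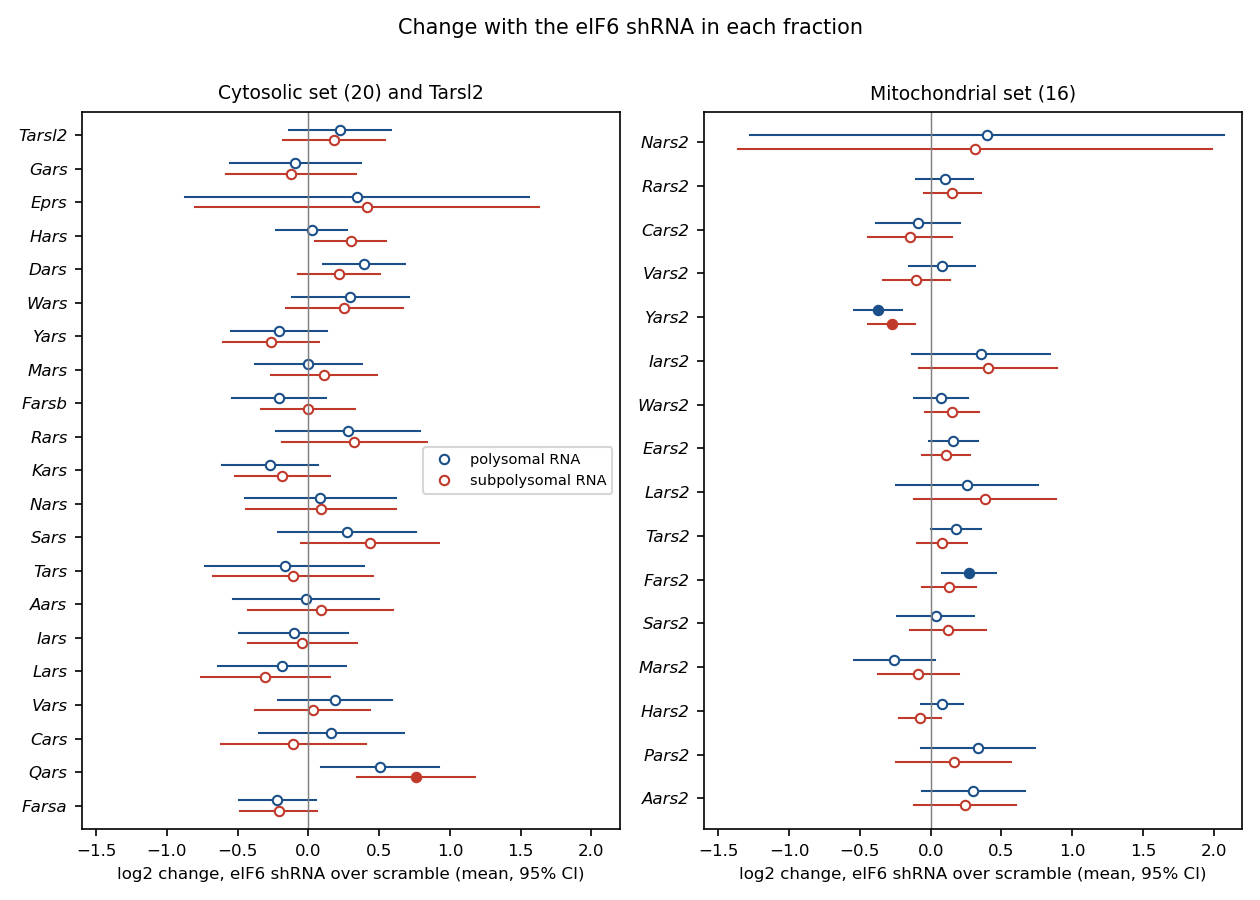
Polysomal and subpolysomal change of each synthetase in eIF6 shRNA against scramble cells, on the log2 scale with 95% intervals; filled markers have an adjusted p under 0.05 (limma). Under quantile normalization Qars is higher in subpolysomes, Yars2 lower in both fractions and Fars2 higher on polysomes; under spike-in scaling Fars2 has a polysomal change of -0.16.

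Qars had the largest change of those called. Its subpolysomal values, given above, were 13.78 to 13.92 in scramble and 14.61 to 14.63 in eIF6 shRNA cells, without overlap. In subpolysomes it was higher by 0.76 (standard error 0.19, adjusted p = 0.0104 from limma), or 1.70-fold, with a 95% interval from 0.34 to 1.18. This call was lost when replicate 1, 2 or 3 was left out. On polysomes its change was 0.50 and missed the threshold (adjusted p = 0.0851 from limma). Scramble array 4 read 13.45 there, among eIF6 shRNA values of 12.97 to 13.54. Without the arrays numbered 4 the change was 0.64 (adjusted p = 0.00114 from limma). As these arrays were left out after their high values were seen, this is no support for a polysomal change of Qars. Dars, the aspartyl-tRNA synthetase, had a polysomal change of 0.39 (adjusted p = 0.0504).

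Yars2, the mitochondrial tyrosyl-tRNA synthetase, was the only member called in both fractions over all arrays, and Qars joined it without the arrays numbered 4. On polysomal arrays it read 11.03, 10.97, 10.93 and 10.93 in scramble and 10.69, 10.75, 10.46 and 10.45 in eIF6 shRNA cells. In subpolysomes the values were 10.80, 10.73, 10.71 and 10.86 against 10.53, 10.47, 10.51 and 10.47. The groups did not overlap in either fraction. Yars2 fell by 0.37 on polysomes on the log2 scale (standard error 0.08, adjusted p = 0.00265 from limma) and by 0.28 in subpolysomes (standard error 0.08, adjusted p = 0.0188), or 1.30-fold and 1.21-fold. The subpolysomal call was lost without replicate 1, 2 or 3.

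Fars2, the mitochondrial phenylalanyl-tRNA synthetase, was the remaining member called on polysomes. It read 10.85, 10.86, 10.98 and 10.55 in scramble and 11.21, 11.05, 11.08 and 10.97 in eIF6 shRNA cells. The groups overlapped by a single scramble array. The difference came to 0.27 (standard error 0.09, adjusted p = 0.0449 from limma), or 1.21-fold. The call was lost when replicate 1, 2 or 3 was left out, without a detection filter and with the replicate number as a block, and under spike-in scaling the change was -0.16.

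**Figure D5:**
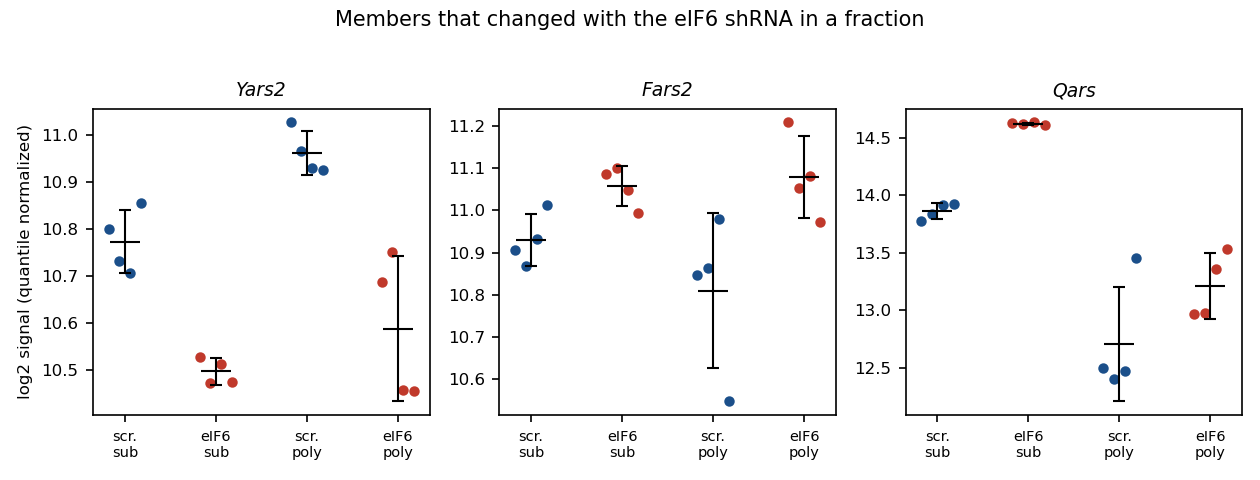
Log2 signal of Qars, Yars2 and Fars2 on each array of the 4 groups, with group means and SD (n = 4). The subpolysomal values of Qars are higher and those of Yars2 lower in eIF6 shRNA cells without overlap under quantile normalization; the polysomal values of Fars2 overlap, and their difference turns to -0.16 under spike-in scaling.

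The change in translational efficiency was called for no member by limma. At an adjusted p, 0 of 37 were called, beside 1.51% of all genes, and at an unadjusted p under 0.05 also 0 of 37, beside 12.5% of all genes. An exact permutation test of the ratio of same-numbered arrays also found 0 members, with 0.0286 as the smallest p that its 70 relabellings allow. It takes same-numbered arrays as pairs, although their deviations were hardly correlated between fractions (r from -0.16 to 0.03), and is a description only. The changes ran from -0.28 to 0.27, with a median of -0.05 for the cytosolic set and 0.05 for the mitochondrial set, beside 0.02 for all genes. These data do not show that the efficiencies were alike. The 95% interval of the change lay within 1 log2 unit of 0 for 35 members, all but Eprs and Nars2, and within 0.5 for 10.

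Over all arrays, the 2 sets overlapped in the 4 groups. The mean deviation of the cytosolic set was 0.02 ± 0.08 (SD, n = 4 arrays) in subpolysomes and -0.09 ± 0.36 on polysomes of scramble cells, and 0.11 ± 0.08 and -0.04 ± 0.36 in eIF6 shRNA cells. For the mitochondrial set it was -0.07 ± 0.03 and -0.04 ± 0.12 in scramble cells, and 0.03 ± 0.12 and 0.08 ± 0.10 in eIF6 shRNA cells. On each array the cytosolic minus the mitochondrial mean was 0.09 ± 0.07 and -0.05 ± 0.24 in subpolysomes and on polysomes of scramble cells. In eIF6 shRNA cells it was 0.08 ± 0.12 and -0.12 ± 0.26, so that all 4 groups overlapped. Without the arrays numbered 4, the difference ran from -0.20 to -0.12 on polysomes and from 0.010 to 0.14 in subpolysomes of scramble cells. In eIF6 shRNA cells it ran from -0.34 to 0.0030 and from 0.0096 to 0.21, so that the fractions no longer overlapped but nearly touched. As these arrays were left out for their high cytosolic values, the separation is no support for a difference between the sets. It is given under quantile normalization only.

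Genes that work with the synthetases were read in the same way. Of the cytosolic members, 8 belong to the complex and 12 do not. In scramble cells 3 of the 8 were called (2 lower and 1 higher, median ratio -0.20) and 7 of the 12 (3 lower and 4 higher, median -0.23). Among all genes 60.1% were called there, 28.4% lower and 31.7% higher. The scaffold genes Aimp1 (0.68 and 0.38), Aimp2 (0.56 and 0.36) and Eef1e1 (0.52 and 0.40) were all higher on polysomes in scramble and eIF6 shRNA cells, under spike-in and 75th percentile scaling too. Their polysomal values were highest on array 4 in both cells for 2 of 3. In eIF6 shRNA cells Eef1e1 had a polysomal change of -0.36 (adjusted p = 0.0317 from limma) and Aimp1 a subpolysomal change of 0.41 (adjusted p = 0.00804).

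Charged transfer RNAs are brought to the ribosome by the elongation factor eEF1. Of its 5 genes on the list, 4 had a called ratio in each of the cells, beside 60.1% and 60.8% of all genes. Eef1a1, which binds the charged transfer RNA, had ratios of -1.29 and -1.33, Eef1g -0.88 and -0.79 and Eef1b2 -0.26 and -0.53, whereas Eef1d had 1.23 and 0.82. Of these, Eef1a1, Eef1g and Eef1b2 turned to 0.35, 0.33 and 0.54 in scramble cells under spike-in scaling, and Eef1d in eIF6 shRNA cells to -0.087 with the 75th percentile. In mitochondrial translation, 7 of the 13 tested genes were called in both cells, 4 lower and 3 higher, beside the same 60.1% and 60.8% of all genes. Mtif2, an initiation factor, had -2.02 and -1.92 and Tsfm, an elongation factor, -1.08 and -1.23, while the release factor Mtrf1 had 1.03 and 0.92. The genes of the amidotransferase that makes mitochondrial glutaminyl-tRNA were split, with Gatc at 0.90 and 1.15, Pet112 at 0.56 and 0.55 and Qrsl1 at -0.49 and -0.48. Under spike-in scaling Tsfm turned positive in scramble cells (0.10), and Qrsl1 in both, at 0.95 in eIF6 shRNA cells.

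Of 22 genes of the amino acid response, 4 (18.2%) had a called polysomal change in eIF6 shRNA cells, below the 21.8% of all genes. Mthfd2, an enzyme of mitochondrial one-carbon metabolism, had -0.58 and Trib3, a pseudokinase, -0.29, while the transcription factor Atf3 had 0.67 and the receptor Vldlr 0.48. In scramble cells the ratio of 5 was called lower and of 9 higher (60.1% of all genes called), with a median of 0.26 over the 22. In eIF6 shRNA cells 4 were called lower and 9 higher (60.8% of all genes called), with a median of 0.23. The cytosolic synthetases had medians of -0.22 and -0.26. Of the 22 genes, 8 (36.4%) were highest on the polysomal arrays numbered 4 in both cells, against 16 of 20 cytosolic synthetases, and no test of that difference was made.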

How the data were processed

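The 16 arrays hold polysomal or subpolysomal RNA of scramble or eIF6 shRNA cells, 4 per group. Per the file headers, the authors scanned at 5 micrometres and used Feature Extraction 10.7.3.1 (10.7.7.1 in the submitters' processing notes). The deposited values are an intensity for each spot, background-corrected and not normalized between arrays, and a series table of log2 values that the authors quantile normalized.

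Intensities were read in R 4.3.3 with data.table (version 1.17.8). Outlier spots were left out (82 probe values missing), spots of a probe averaged, and probes kept when well above background on at least 2 of 4 arrays of a group. Log2 intensities were quantile normalized and the kept probes of a gene averaged, 46 of 47 member probes being kept, and 29 members rested on 1 probe. limma 3.58.1 fitted 4 group means and 5 contrasts, with Benjamini-Hochberg adjustment over 19365 genes and a threshold of 0.05. Members are named in the text when called, at the ends of a set or in a pair. The fit was tested on simulated data. The members and lists were chosen with earlier results of these data known. Alternatives were 3 scalings, normexp (offset 50), 3 filters, the brightest probe, the authors' table, slide, replicate and culture blocks, each replicate left out, and Tarsl2 in a set. An alternative added after the data were seen and a promoter match are not reported here. The number of arrays limits the precision. Probe coordinates (mm9) come from the deposited files and figures from matplotlib 3.10.9 in Python 3.11.15.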

Additional observations from a re-analysis of the deposited data

Results flagged for a closer look

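Groups of 4 arrays were examined for only some of the members named. Of these 84 groups, 7 held a value farther from the others than Dixon's criterion allows, which chance does in about 1 of 20 groups. Aars and Farsb were not examined, although scramble polysomal array 4 read 13.59 and 12.11 for them, against group medians of 12.62 and 11.36. The count is therefore not one over all members. Scramble polysomal array 4 read 13.45 for Qars (others 12.40 to 12.50), 11.66 for Vars (10.87 to 10.91) and 11.29 for Wars (10.54 to 10.63). Scramble subpolysomal array 4 read 11.68 for Lars (12.28 to 12.36) and 7.66 for Pars2 (6.86 to 6.98). In eIF6 shRNA cells, subpolysomal array 4 read 9.61 for Farsa (9.88 to 9.90) and subpolysomal array 1 read 8.18 for Mars2 (7.63 to 7.70). Of the 7 values, 6 were on arrays numbered 4.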

How the results depend on the processing

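No member was called for translational efficiency under any alternative run. Polysomal calls of the cytosolic set went from 0 to 1 with the 75th percentile, quantile normalization within fractions, normexp, a filter of 3 of 4 or all 16 arrays, or the brightest probe, and ran from 0 to 1 with a replicate left out. Those of the mitochondrial set went from 2 to 0 with spike-in scaling to 1 without a filter or with the replicate number as a block, and to 3 with normexp (leave-one-out 1 to 3). Subpolysomal calls of the cytosolic set went from 1 to 2 with the 75th percentile and 0 with spike-in scaling (leave-one-out 0 to 4), and those of the mitochondrial set from 1 to 0 with spike-in scaling and 2 with normexp (leave-one-out 0 to 3). Calls of the ratio with spike-in scaling were 17 cytosolic and 14 mitochondrial in scramble cells, and 15 and 12 in eIF6 shRNA cells, 0 of them lower; with a replicate left out they ran from 7 to 16, 4 to 8, 6 to 18 and 5 to 9. Spike-in scaling, in which the shift of all genes given in the report is contained, turned Fars2 on polysomes to -0.16. It turned ratios in scramble cells to 0.90 for Aars2, 0.62 for Cars, 0.22 for Farsa, 1.30 for Hars2, 1.31 for Lars, 1.18 for Mars2, 0.85 for Pars2, 0.72 for Qars, 1.35 for Sars2 and 1.26 for Vars, and in eIF6 shRNA cells to 0.77 for Aars2, 0.55 for Cars, 1.25 for Hars2, 0.82 for Mars2, 0.15 for Qars and 1.07 for Sars2. The 75th percentile turned Yars in eIF6 shRNA cells to -0.044. Causes were not tested. Of same-numbered arrays, the polysomal ones numbered 4 deviated together (r = 0.41, at most 0.25 between different numbers) and the other pairs had r from -0.16 to 0.12. The numbers were therefore not taken as pairs in the main fit, though the exact test of translational efficiency used them. With the replicate block the ratio was called for 11 cytosolic and 6 mitochondrial members in scramble cells and for 10 and 7 in eIF6 shRNA cells. With the slide as a block it was called for 18 members in both. Spread between 4 arrays, and for Eprs and Nars2 signal near background, limit all values.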
